A study of Mus musculus with 8 samples.

Results

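The 40 genes described here act in the repair of DNA double-strand breaks and in the checkpoint that answers to them. They were taken by name, 40 of the 23234 gene symbols in the expression table, and all 40 passed the filter on low values that left 10610 genes to test. By role, 17 belong to homologous recombination, 8 to the Fanconi anaemia pathway, 9 to checkpoint signalling and break recognition, and 6 to end joining. The names were not chosen by their values in the genotype or zone comparisons, but the set was proposed with earlier results of these data known.

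RNA was measured in mouse germinal centre B cells, the dividing B cells in which antibody genes are mutated and improved variants selected. All donor B cells carried B1-8hi(KI/+), a knocked-in antigen receptor heavy chain that gives binding to the hapten NP, and ERT2cre(KI/+), a Cre recombinase switched on by tamoxifen, on the C57BL/6 background. They also carried Prdm1(f/f), floxed alleles of the plasma cell factor, and were either Bach2(+/+) or Bach2(f/f), with floxed alleles of a transcriptional repressor that sustains B cell identity; the age of the mice was not given. Donor cells were transferred into wild-type CD45.1/CD45.2 recipients, which kept their own lymphocytes, were treated with 3 mg of tamoxifen for 3 days and were immunized with NP-CGG. On day 10, NP-binding GL7+CD38- donor cells were sorted from spleen cells of 5 pooled recipients as light zone (LZ; CD86 high, CXCR4 low) or dark zone (DZ; CD86 low, CXCR4 high). Each of the 4 groups, Bach2(+/+) LZ, Bach2(f/f) LZ, Bach2(+/+) DZ and Bach2(f/f) DZ, had 2 libraries, and all 4 carried floxed Prdm1, so no group with intact Prdm1 was compared. The labels do not say that the 2 libraries of a group came from separate pools of mice, so the spread behind each p-value is that between libraries and may be technical.

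Homologous recombination copies the lost sequence from the sister chromatid and so works mainly in the S and G2 phases of the cell cycle. End joining ligates the ends directly at any phase. The Fanconi anaemia proteins recognise crosslinked or stalled replication forks and hand the resulting breaks to recombination. The kinases ATM and ATR sense breaks and single-stranded DNA and pass the signal to CHK2, CHK1 and p53. Germinal centre B cells divide fast, and the enzyme AID, which mutates their antibody genes, also starts the breaks of class switching that end joining closes.

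Levels are in FPKM, a read measure scaled to the length of the transcript and to the total mapped in its library. Values for a group are listed in the order of its libraries, replicate 1 and then replicate 2. Differences are on the log2(FPKM + 1) scale with 1 standard error (SE), a scale that understates the change of low genes. A gene rose or fell only where limma's adjusted p over all 10610 genes was under 0.05. In bulk RNA, fewer cells of a type and less RNA per cell cannot be told apart.

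Upstream sequences are shown for 5 members that passed the threshold in both genotype comparisons and held a word searched for: Topbp1, Mdc1, Xrcc6, Brca1 and Blm. They were chosen for holding a word, so the words they hold are no finding about the genes that rose. Of the other 3 genes past the threshold in both, the window of Xrcc5 held a CCAAT box, that of Chek1 held none of the words, and Rad50 was not matched. The RefSeq table (GRCm38.p6) matched 32 of the 40 members with 34 windows, since Rad54l and Lig4 have 2 starts each, and each sequence is the 250 bases before the transcription start, 5′ to 3′ on the gene's own strand. Topbp1 lies on the plus strand at chr9:103305077-103305326, Mdc1 on the plus strand at chr17:35841248-35841497 and Xrcc6 on the plus strand at chr15:82016119-82016368. Brca1 lies on the minus strand at chr11:101551956-101552205 and Blm on the minus strand at chr7:80534999-80535248. Capitals mark an E2F word or its reverse complement in Topbp1, Mdc1 and Xrcc6, and a CCAAT box or its reverse complement in Mdc1, Brca1 and Blm.
Topbp1: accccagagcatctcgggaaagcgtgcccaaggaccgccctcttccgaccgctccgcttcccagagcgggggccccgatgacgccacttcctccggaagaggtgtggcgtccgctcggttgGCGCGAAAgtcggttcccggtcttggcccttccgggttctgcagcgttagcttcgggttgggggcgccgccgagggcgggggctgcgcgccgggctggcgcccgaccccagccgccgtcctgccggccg
Mdc1: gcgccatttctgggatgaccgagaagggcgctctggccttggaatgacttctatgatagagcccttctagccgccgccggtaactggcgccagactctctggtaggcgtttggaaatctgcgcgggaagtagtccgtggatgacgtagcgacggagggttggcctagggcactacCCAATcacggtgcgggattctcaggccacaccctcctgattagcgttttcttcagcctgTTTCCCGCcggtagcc
Xrcc6: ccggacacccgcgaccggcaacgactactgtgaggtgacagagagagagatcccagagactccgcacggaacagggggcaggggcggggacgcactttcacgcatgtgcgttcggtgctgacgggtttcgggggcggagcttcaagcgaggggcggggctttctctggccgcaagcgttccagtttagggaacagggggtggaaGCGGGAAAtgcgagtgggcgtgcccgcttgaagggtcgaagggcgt
Brca1: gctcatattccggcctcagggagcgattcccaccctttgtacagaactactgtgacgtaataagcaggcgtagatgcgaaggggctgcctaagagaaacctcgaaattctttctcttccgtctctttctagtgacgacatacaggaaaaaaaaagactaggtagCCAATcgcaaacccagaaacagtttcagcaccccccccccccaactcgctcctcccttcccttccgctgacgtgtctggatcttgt
Blm: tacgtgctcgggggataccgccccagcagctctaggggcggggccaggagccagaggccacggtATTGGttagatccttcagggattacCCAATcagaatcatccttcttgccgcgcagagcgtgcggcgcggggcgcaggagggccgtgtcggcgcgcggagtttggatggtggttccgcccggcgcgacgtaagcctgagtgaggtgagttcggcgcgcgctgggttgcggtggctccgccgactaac

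Words were searched on both strands, and in these 5 sequences no word overlapped another. The E2F words, TTTCCCGC, TTTGGCGC, TTTCGCGC and TTTGCCGC, are bound by the factors that switch on genes at the start of S phase. One of them lay in a window of 7 of the 32 matched members (21.9%), namely Brca2, Bard1, Fancg, Chek2, Topbp1, Mdc1 and Xrcc6, against 4.2% of the 7472 tested genes with a window and 2.16% of all 27025 genes of the RefSeq table. By class, 3 of 19 recombination and Fanconi genes and 4 of 13 checkpoint and end joining genes held one. The CCAAT box was held by 16 of the 32 members (50%), against 41.6% of the tested genes. The CHR words TTTGAA and TTCGAA, found in genes of late cell cycle phases, were held by 2 members (6.25%), against 14.6%. The core bound by AP-1, and by BACH2 with its small MAF partners, was searched as TGAGTCA and TGACTCA; it was held by 0 of the 32 members, against 3.41% of the tested genes. A match is a run of letters and not a shown binding site.

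The libraries were alike in total FPKM and in the agreement of replicates. The FPKM of a library summed to between 502214 and 540885, and replicates correlated with Pearson's r between 0.946 and 0.96 over the genes tested. FPKM tables give no read totals; the steps between low values put DZ libraries at 1.43 times the depth of LZ libraries, with the genotypes within a zone at ratios of 1.05 and 0.971. Among members, replicates differed by a median of 0.0448 to 0.0832 on the log2(FPKM + 1) scale, and the widest gap was 0.398, for H2afx in Bach2(+/+) LZ. Both Bach2(+/+) libraries numbered 1 stood apart from the other 6 in Klf2, a quiescence factor, at 10.5 and 11.3 FPKM against 3.00 to 4.38, so counts are also given without them. The sorted zones differed in their sort markers in the direction of the gates: Cd86 was higher in LZ by 1.40 and 1.27 and Cxcr4 lower, at -0.82 and -0.81 as LZ minus DZ. Bach2 transcript was not lower in Bach2(f/f) libraries but higher, at 64.5 and 62.7 against 49.8 and 53.4 FPKM in LZ and 96.2 and 94.5 against 76.2 and 74.6 in DZ. A gene total that includes exons outside the floxed part cannot check the deletion, so the genotypes below are those of the labels. All 11 germinal centre B cell markers in the table were at 1 FPKM or more in every library. They summed to 4360 to 4470 FPKM in Bach2(+/+) LZ and 3870 to 3900 in Bach2(f/f) LZ. In DZ the sums were 3880 to 4020 in Bach2(+/+) and 3450 to 3490 in Bach2(f/f). From Bach2(+/+) to Bach2(f/f), 5 of the 11 fell and 1 rose in LZ, and 4 fell and 1 rose in DZ. Of all genes, 12.7% fell and 18.4% rose in LZ, and 5.23% fell and 6.63% rose in DZ.

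Across all libraries the members ran from 4.04 to 283 FPKM, and all 40 had a mean of at least 5 FPKM. Only 4 had a mean of at least 50: H2afx, which encodes the histone variant phosphorylated beside breaks, Parp1, a sensor of broken ends, Trp53 and Topbp1. Recombination and Fanconi genes lay lower, with Rad51ap1, whose product promotes strand pairing, the highest of them in every group. The heat map of all 40 genes shows the groups side by side.

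**Figure D1:**
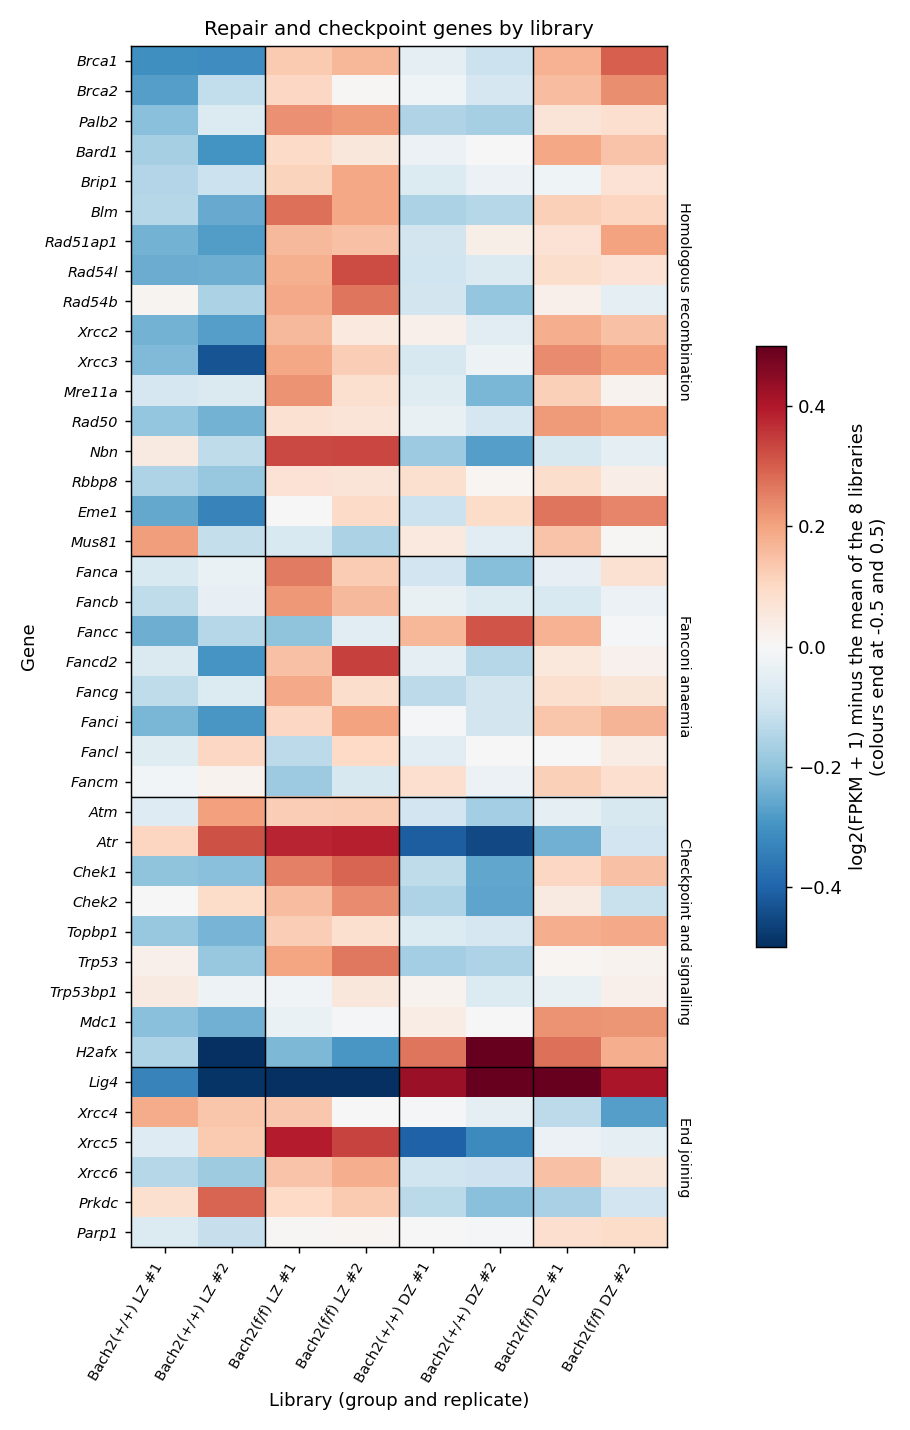
Heat map of the 40 genes (rows, by class) in the 8 libraries (columns), coloured by log2(FPKM + 1) minus the gene's mean over the 8 libraries, with colours ending at -0.5 and 0.5. The Bach2(+/+) LZ columns are mostly blue in the recombination and Fanconi rows, while Lig4, H2afx and Atr differ between LZ and DZ columns.

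In LZ cells, Bach2(f/f) libraries held more mRNA for most of the recombination members and for fewer of the end joining members. Of the 17 recombination genes 14 rose and 0 fell, with a median difference of 0.34. Of the 8 Fanconi genes 5 rose and 0 fell, with a median of 0.24. Of the 9 checkpoint genes 4 rose and 0 fell, with a median of 0.17. Of the 6 end joining genes 2 rose and 0 fell, with a median of 0.016. Over all genes tested 18.4% rose and 12.7% fell, with a median of 0.022. Together, recombination and Fanconi genes counted 19 of 25 higher and checkpoint and end joining genes 6 of 15. When scaled by the upper quartile, the calls over all genes shifted from 1948 higher and 1351 lower to 1549 higher and 1855 lower, and members that changed were still all higher.

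Rad54l, a motor protein of strand exchange, was at 18.4 and 18.5 FPKM in Bach2(+/+) LZ, 25.1 and 27.9 in Bach2(f/f) LZ, 20.5 and 20.9 in Bach2(+/+) DZ and 23.5 and 23.2 in Bach2(f/f) DZ. Both Bach2(f/f) LZ libraries lay above every other library. The LZ difference was 0.50 ± 0.056 (adjusted p = 0.00203, limma), the smallest p of the recombination genes, and the level ratio was 1.44. Brca1, the ubiquitin ligase subunit that directs breaks to recombination, was at 12.7 and 12.6 FPKM in Bach2(+/+) LZ, 17.5 and 17.96 in Bach2(f/f) LZ, 15.4 and 14.7 in Bach2(+/+) DZ and 18.1 and 19.8 in Bach2(f/f) DZ. The LZ groups did not overlap. Its LZ difference was 0.46 ± 0.056 (adjusted p = 0.00257, limma). Blm, a helicase that unwinds joint DNA molecules, was at 9.91 and 9.11 FPKM in Bach2(+/+) LZ, 13.6 and 12.8 in Bach2(f/f) LZ, 9.79 and 9.90 in Bach2(+/+) DZ and 12.1 and 11.99 in Bach2(f/f) DZ. Libraries of the Bach2(f/f) genotype were the higher ones in both zones. In LZ the difference was 0.43 ± 0.059 (adjusted p = 0.00345, limma).

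Rad51ap1, which promotes strand pairing, was at 23.6 and 22.9 FPKM in Bach2(+/+) LZ, 31.5 and 31.1 in Bach2(f/f) LZ, 26.2 and 28.6 in Bach2(+/+) DZ and 29.5 and 32.3 in Bach2(f/f) DZ. The LZ groups were apart and the DZ groups nearly touched. Its LZ difference was 0.41 ± 0.062 (adjusted p = 0.00461, limma). Rad50, a structural subunit of the complex with MRE11 and NBN that trims broken ends, was at 14.9 and 14.5 FPKM in Bach2(+/+) LZ, 18.2 and 18.04 in Bach2(f/f) LZ, 16.7 and 16.2 in Bach2(+/+) DZ and 20.1 and 19.9 in Bach2(f/f) DZ. In LZ it differed by 0.29 ± 0.043 (adjusted p = 0.00479, limma), in libraries that did not overlap. Nbn, the subunit of that complex which recruits ATM, was at 17.3 and 15.3 FPKM in Bach2(+/+) LZ, 21.3 and 21.4 in Bach2(f/f) LZ, 14.6 and 13.7 in Bach2(+/+) DZ and 15.8 and 16.2 in Bach2(f/f) DZ. The LZ difference was 0.37 ± 0.067 (adjusted p = 0.00851, limma), and both Bach2(f/f) LZ libraries were above all 6 others. Rbbp8, which encodes CtIP, the starter of end resection, was at 15.1 and 14.7 FPKM in Bach2(+/+) LZ, 17.8 and 17.8 in Bach2(f/f) LZ, 17.9 and 17.02 in Bach2(+/+) DZ and 18.1 and 17.3 in Bach2(f/f) DZ. The 2 Bach2(+/+) LZ libraries were the lowest of all, and the LZ difference was 0.24 ± 0.048 (adjusted p = 0.012, limma). Eme1, a subunit of a nuclease that cuts joint molecules, was at 11.6 and 10.9 FPKM in Bach2(+/+) LZ, 14.04 and 15.1 in Bach2(f/f) LZ, 12.99 and 15.1 in Bach2(+/+) DZ and 17.2 and 16.9 in Bach2(f/f) DZ. The genotypes did not overlap in LZ, where the difference was 0.34 ± 0.078 (adjusted p = 0.0191, limma).

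The other recombination genes that rose in LZ were Palb2, Bard1, Brip1, Rad54b, Xrcc2 and Xrcc3. Their differences ran from 0.28 for Brip1, a helicase partner of BRCA1, to 0.48 for Xrcc3, which acts in strand exchange. The 3 that did not pass were Brca2, Mre11a and Mus81. Brca2, a mediator of recombination at resected ends, was at 4.45 and 5.06 FPKM in Bach2(+/+) LZ, 6.08 and 5.63 in Bach2(f/f) LZ, 5.51 and 5.23 in Bach2(+/+) DZ and 6.35 and 6.75 in Bach2(f/f) DZ. Bach2(f/f) values were the higher ones in each zone without overlap, yet the LZ difference of 0.25 ± 0.078 (adjusted p = 0.0513, limma) missed the threshold. Mre11a, the nuclease of the end-trimming complex, differed by 0.23 ± 0.078 (adjusted p = 0.0657, limma). Mus81, the catalytic partner of EME1, differed by -0.16 ± 0.11 (adjusted p = 0.327, limma), and its LZ groups overlapped. Without Bach2(+/+) LZ replicate 2, the lower of its pair, Mus81 passed as lower in Bach2(f/f) LZ, at -0.33 (adjusted p = 0.0482, limma).

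Fanci, which forms the clamp on damaged DNA with FANCD2, was at 9.90 and 9.42 FPKM in Bach2(+/+) LZ, 12.7 and 13.7 in Bach2(f/f) LZ, 11.7 and 10.96 in Bach2(+/+) DZ and 13.1 and 13.4 in Bach2(f/f) DZ. In LZ the genotypes differed by 0.41 ± 0.060 (adjusted p = 0.00422, limma), with a ratio of 1.37. Fancd2, its partner in the clamp, was at 10.5 and 8.87 FPKM in Bach2(+/+) LZ, 12.4 and 14.3 in Bach2(f/f) LZ, 10.7 and 9.99 in Bach2(+/+) DZ and 11.6 and 11.3 in Bach2(f/f) DZ. The LZ difference was 0.43 ± 0.097 (adjusted p = 0.0185, limma), and the libraries of the 2 genotypes did not overlap in LZ. Fancb, a subunit of the Fanconi core ligase, was at 5.83 and 6.25 FPKM in Bach2(+/+) LZ, 7.66 and 7.33 in Bach2(f/f) LZ, 6.27 and 6.11 in Bach2(+/+) DZ and 6.08 and 6.30 in Bach2(f/f) DZ. Only the Bach2(f/f) LZ libraries were above 7 FPKM, and the LZ difference was 0.27 ± 0.061 (adjusted p = 0.0176, limma). Fancg, an adaptor of the core complex, was at 10.99 and 11.5 FPKM in Bach2(+/+) LZ, 13.96 and 12.9 in Bach2(f/f) LZ, 10.96 and 11.3 in Bach2(+/+) DZ and 12.8 and 12.7 in Bach2(f/f) DZ. Bach2(f/f) exceeded Bach2(+/+) in both zones, and the LZ difference was 0.24 ± 0.055 (adjusted p = 0.0202, limma).

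Fanca, another core subunit, rose in LZ by 0.25 ± 0.072 (adjusted p = 0.0425, limma). Its call was lost without any of the 4 LZ libraries and without either Bach2(f/f) DZ library, at adjusted p from 0.0553 to 0.193 in limma, and under 6 other settings. Fancc differed by 0.065 ± 0.097 (adjusted p = 0.652, limma) and Fancl, the ligase subunit that modifies the clamp, by -0.04 ± 0.090 (adjusted p = 0.776, limma). Fancm, the translocase that anchors the core complex to DNA, was at 14.3 and 14.7 FPKM in Bach2(+/+) LZ, 12.6 and 13.6 in Bach2(f/f) LZ, 15.4 and 14.2 in Bach2(+/+) DZ and 15.8 and 15.4 in Bach2(f/f) DZ. Both Bach2(f/f) LZ libraries lay below the Bach2(+/+) LZ libraries, and the LZ difference of -0.14 ± 0.060 (adjusted p = 0.136, limma) did not pass.

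Among checkpoint genes, Chek1 and Topbp1 of the ATR arm rose together with Mdc1 and Trp53, while the kinases Atm and Atr themselves did not pass. Chek1, the kinase that ATR activates to hold the cell cycle, was at 14.7 and 14.6 FPKM in Bach2(+/+) LZ, 20.5 and 21.1 in Bach2(f/f) LZ, 15.5 and 14.1 in Bach2(+/+) DZ and 18.4 and 19.02 in Bach2(f/f) DZ. The genotypes were apart in both zones. Its LZ difference was 0.48 ± 0.056 (adjusted p = 0.00226, limma), with a ratio of 1.42. Topbp1, the activator of ATR, was at 60.1 and 58.3 FPKM in Bach2(+/+) LZ, 74.95 and 72.7 in Bach2(f/f) LZ, 65.4 and 64.8 in Bach2(+/+) DZ and 78.2 and 78.6 in Bach2(f/f) DZ. Bach2(f/f) libraries were the higher ones in LZ, by 0.31 ± 0.036 (adjusted p = 0.00211, limma). Mdc1, the mediator that spreads the signal along chromatin, was at 17.6 and 17.3 FPKM in Bach2(+/+) LZ, 20.04 and 20.4 in Bach2(f/f) LZ, 21.1 and 20.6 in Bach2(+/+) DZ and 24.2 and 24.1 in Bach2(f/f) DZ. Each of the 4 groups held its own range, with no overlap between any of them. Its LZ difference was 0.20 ± 0.040 (adjusted p = 0.0116, limma). Trp53, which encodes p53, was at 83.7 and 71.8 FPKM in Bach2(+/+) LZ, 94.3 and 98.8 in Bach2(f/f) LZ, 72.9 and 73.7 in Bach2(+/+) DZ and 82.8 and 83.1 in Bach2(f/f) DZ. The LZ difference was 0.31 ± 0.071 (adjusted p = 0.0185, limma), and the highest 2 values were those of Bach2(f/f) LZ.

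Atm, the kinase activated by double-strand breaks, was at 12.04 and 14.7 FPKM in Bach2(+/+) LZ, 13.8 and 13.9 in Bach2(f/f) LZ, 11.8 and 11.1 in Bach2(+/+) DZ and 12.2 and 11.9 in Bach2(f/f) DZ. In LZ the Bach2(f/f) values lay between the 2 Bach2(+/+) values, and the difference was 0.055 ± 0.089 (adjusted p = 0.683, limma). Atr, the kinase that senses single-stranded DNA, was at 6.42 and 7.59 FPKM in Bach2(+/+) LZ, 7.98 and 8.03 in Bach2(f/f) LZ, 4.17 and 4.04 in Bach2(+/+) DZ and 4.84 and 5.46 in Bach2(f/f) DZ. The LZ genotype difference was 0.17 ± 0.089 (adjusted p = 0.188, limma), smaller than the distance between zones. H2afx, the histone variant marked beside breaks, was at 180.1 and 136 FPKM in Bach2(+/+) LZ, 171 and 164 in Bach2(f/f) LZ, 242 and 283 in Bach2(+/+) DZ and 243 and 227 in Bach2(f/f) DZ. The 2 Bach2(+/+) LZ libraries lay on either side of both Bach2(f/f) LZ libraries, and the difference was 0.094 ± 0.14 (adjusted p = 0.642, limma). Chek2, the kinase ATM activates, differed by 0.15 ± 0.077 (adjusted p = 0.191, limma) and Trp53bp1, whose protein shields ends from resection, by 0.008 ± 0.059 (adjusted p = 0.936, limma).

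In end joining the KU subunits rose and the other 4 genes did not pass. Xrcc6, which encodes KU70, a subunit of the ring that holds broken ends, was at 26.1 and 25.4 FPKM in Bach2(+/+) LZ, 32.00 and 32.9 in Bach2(f/f) LZ, 26.9 and 26.8 in Bach2(+/+) DZ and 32.1 and 30.1 in Bach2(f/f) DZ. The genotypes were apart in both zones. Its LZ difference was 0.32 ± 0.046 (adjusted p = 0.00392, limma). Xrcc5, which encodes KU80, its partner in the ring, was at 13.4 and 15.5 FPKM in Bach2(+/+) LZ, 18.8 and 18.1 in Bach2(f/f) LZ, 10.4 and 11.1 in Bach2(+/+) DZ and 13.8 and 13.6 in Bach2(f/f) DZ. In LZ the genotypes did not overlap and differed by 0.33 ± 0.073 (adjusted p = 0.0172, limma). Prkdc, the kinase that binds KU on DNA ends, was at 9.19 and 10.8 FPKM in Bach2(+/+) LZ, 9.35 and 9.57 in Bach2(f/f) LZ, 7.78 and 7.35 in Bach2(+/+) DZ and 7.61 and 8.04 in Bach2(f/f) DZ. The LZ groups overlapped, and the difference was -0.068 ± 0.081 (adjusted p = 0.566, limma). Parp1, a fast sensor of broken ends, was at 127 and 123 FPKM in Bach2(+/+) LZ, 133 and 134 in Bach2(f/f) LZ, 133 and 132 in Bach2(+/+) DZ and 141 and 142 in Bach2(f/f) DZ. The LZ difference of 0.10 ± 0.033 (adjusted p = 0.0606, limma) was small beside its level and did not pass. Lig4, the ligase of the pathway, differed by -0.14 ± 0.084 (adjusted p = 0.244, limma) and Xrcc4, its scaffold, by -0.10 ± 0.075 (adjusted p = 0.379, limma); for both genes the Bach2(f/f) LZ libraries were the lower ones.

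Of the 25 calls in LZ, 11 held when any 1 of the 8 libraries was left out: Brca1, Blm, Rad51ap1, Rad54l, Xrcc3, Rad50, Nbn, Fanci, Chek1, Topbp1 and Xrcc6. The other 14 were lost without at least 1 library, at adjusted p between 0.0506 and 0.193 in limma. Without Bach2(f/f) LZ replicate 1 the count of recombination and Fanconi genes fell from 19 to 10, and without Bach2(f/f) LZ replicate 2 to 12. For checkpoint and end joining genes it fell from 6 to 3 without either of these libraries. Without both Bach2(+/+) libraries numbered 1 the counts were 15 and 8. LZ genotype calls over all genes also fell without either Bach2(f/f) LZ library. The plot of genotype differences shows both zones for every gene.

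**Figure D2:**
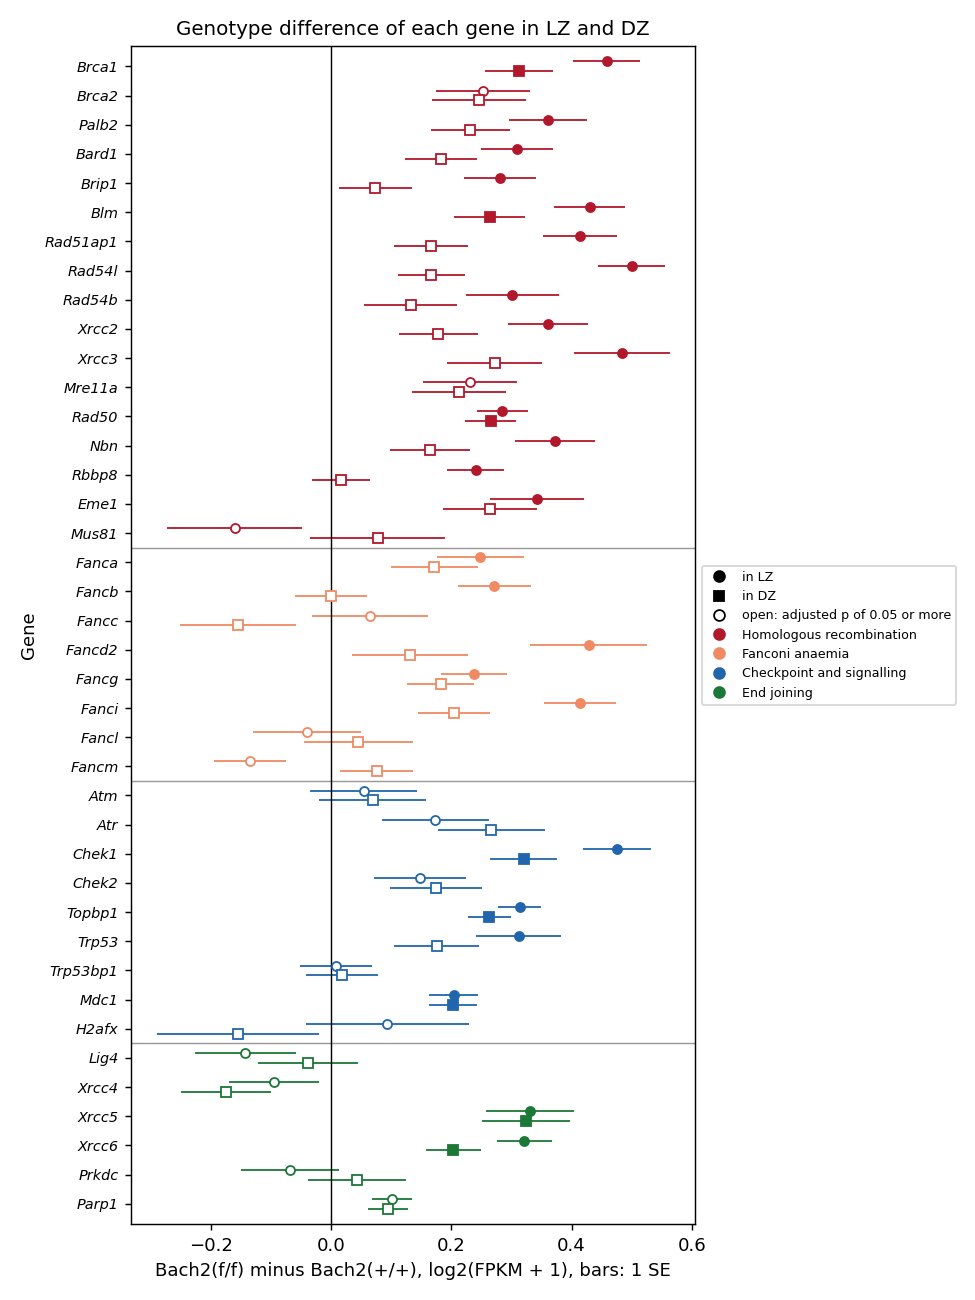
Bach2(f/f) minus Bach2(+/+) on the log2(FPKM + 1) scale for the 40 genes, in LZ (circles) and DZ (squares), with bars of 1 SE; filled symbols have a limma adjusted p under 0.05 and colours give the class. Of the 25 recombination and Fanconi genes, 19 have filled circles in LZ and 3 have filled squares in DZ.

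In DZ cells the same comparison gave fewer calls. Of the 25 recombination and Fanconi genes 3 rose and 0 fell, and of the 15 checkpoint and end joining genes 5 rose and 0 fell. Over all genes tested 6.63% rose and 5.23% fell. The medians were 0.18 for recombination, 0.10 for Fanconi, 0.18 for checkpoint and 0.069 for end joining genes, beside 0.014 for all genes. All 8 genes that rose in DZ had also risen in LZ, and the remaining 17 that rose in LZ did not pass in DZ.

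The recombination genes that rose in DZ were Rad50, by 0.27 ± 0.043 (adjusted p = 0.0152, limma), Brca1, by 0.31 ± 0.056 (adjusted p = 0.0203, limma), and Blm, by 0.26 ± 0.059 (adjusted p = 0.0368, limma). In checkpoint signalling Topbp1 rose by 0.26 ± 0.036 (adjusted p = 0.00996, limma), Chek1 by 0.32 ± 0.056 (adjusted p = 0.019, limma) and Mdc1 by 0.20 ± 0.040 (adjusted p = 0.0263, limma). The KU genes again rose together, Xrcc5 by 0.32 ± 0.073 (adjusted p = 0.039, limma) and Xrcc6 by 0.20 ± 0.046 (adjusted p = 0.038, limma). These are the libraries listed above, and for each of the 8 genes the DZ groups did not overlap. In the Fanconi class 0 of 8 genes passed in DZ, with 2 of 8 (25%) at an unadjusted limma p under 0.05, beside 28.1% of all genes.

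The values of several genes that did not pass in DZ still lay apart by genotype. Bach2(f/f) libraries were both above Bach2(+/+) libraries for 31 of the 40 genes in DZ and both below for 1, Xrcc4. Among all genes tested the corresponding shares were 32.3% and 26.3%. In LZ the counts were 30 above and 3 below, beside 36.5% and 29.3% of all genes. Brca2 differed in DZ by 0.25 ± 0.078 (adjusted p = 0.0972, limma), Atr by 0.27 ± 0.089 (adjusted p = 0.109, limma), Trp53 by 0.18 ± 0.071 (adjusted p = 0.166, limma), Atm by 0.069 ± 0.089 (adjusted p = 0.676, limma), H2afx by -0.15 ± 0.14 (adjusted p = 0.519, limma), Prkdc by 0.043 ± 0.081 (adjusted p = 0.787, limma) and Parp1 by 0.094 ± 0.033 (adjusted p = 0.122, limma).

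None of the 8 DZ calls held under removal of every library in turn. Calls over all genes in this comparison also fell without any 1 of the DZ libraries, so such losses were not particular to these genes. The count for recombination and Fanconi genes fell from 3 to 0 without any 1 of the 4 DZ libraries, and rose to 5 without either Bach2(+/+) LZ library. For checkpoint and end joining genes it fell from 5 to 0 without either Bach2(f/f) DZ library, to 1 without Bach2(+/+) DZ replicate 2, and to 2 without Bach2(+/+) DZ replicate 1 or either Bach2(f/f) LZ library. Without both Bach2(+/+) libraries numbered 1 the counts were 0 and 2.

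The genotype difference itself was then compared between zones (LZ difference minus DZ difference). By limma 0 of the 40 members passed, and of all 10610 genes 3 did (0.0283%). At an unadjusted limma p under 0.05 there were 7 members (17.5%), beside 1232 of all genes (11.6%). All 7 were recombination or Fanconi genes: Rad54l, Rbbp8, Fancb, Rad51ap1, Fancm, Fanci and Brip1, with Fancm alone below 0. The value of Rad54l was 0.33 ± 0.079 (adjusted p = 0.336, limma; 95% interval 0.14 to 0.52 without adjustment for the number of genes). Medians were 0.17 for the 17 recombination genes and 0.14 for the 8 Fanconi genes, against 0.0011 for the 9 checkpoint and 0.0068 for the 6 end joining genes and 0.014 for all genes. The 32 DNA replication genes had a median of 0.20, with 0 called and 19 (59.4%) at an unadjusted limma p under 0.05. So the larger number of calls in LZ than in DZ was not a shown difference for any single member.

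Between zones of Bach2(+/+) cells, the recombination and Fanconi members that changed were all higher in DZ, while checkpoint and end joining members went both ways. The contrast did not extend to the further checkpoint genes counted below, of which 0 were higher in LZ and 12 higher in DZ. The zone comparisons use the same libraries as the genotype comparisons, so a low value in Bach2(+/+) LZ enters both. Of the 17 recombination genes 0 were higher in LZ and 8 were higher in DZ, and of the 8 Fanconi genes 0 and 2. The 9 checkpoint genes divided into 2 higher in LZ and 3 higher in DZ, and the 6 end joining genes into 2 and 1. Over all genes tested 15.2% were higher in LZ and 16.1% higher in DZ. The median LZ minus DZ difference was -0.15 for recombination genes, -0.028 for Fanconi genes, 0.035 for checkpoint genes and 0.067 for end joining genes.

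The recombination genes higher in DZ were Brca1, Bard1, Rad51ap1, Xrcc2, Xrcc3, Rad50, Rbbp8 and Eme1. In the libraries given above Rbbp8 differed by -0.22 ± 0.048 (adjusted p = 0.0178, limma), Brca1 by -0.23 ± 0.056 (adjusted p = 0.0225, limma), Rad51ap1 by -0.23 ± 0.062 (adjusted p = 0.0332, limma) and Eme1 by -0.29 ± 0.078 (adjusted p = 0.0342, limma). Fancc, a subunit of the Fanconi core complex, was at 5.64 and 6.13 FPKM in Bach2(+/+) LZ, 5.84 and 6.57 in Bach2(f/f) LZ, 7.81 and 8.77 in Bach2(+/+) DZ and 7.88 and 6.82 in Bach2(f/f) DZ. Both Bach2(+/+) DZ values were above the other 6 except for 1 Bach2(f/f) DZ library that lay just above the lower of them, and the Bach2(+/+) zone difference was -0.43 ± 0.097 (adjusted p = 0.018, limma). Fanci differed by -0.21 ± 0.060 (adjusted p = 0.0396, limma). Calls over all genes in this comparison fell when any 1 of the 8 libraries was left out. The count of these 10 calls also fell in each such fit, most without a Bach2(+/+) library. Without Bach2(+/+) LZ replicate 2 it included a gene higher in LZ. Without both Bach2(+/+) libraries numbered 1 it was 3.

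The largest zone differences among the 40 genes lay outside recombination. Lig4, the ligase that seals ends in end joining, was at 8.38 and 7.40 FPKM in Bach2(+/+) LZ, 7.31 and 6.78 in Bach2(f/f) LZ, 14.96 and 16.6 in Bach2(+/+) DZ and 15.9 and 14.7 in Bach2(f/f) DZ. All 4 DZ libraries were above all 4 LZ libraries, with no overlap in either genotype. The LZ minus DZ difference was -0.92 ± 0.084 (adjusted p = 0.00078, limma) in Bach2(+/+) and -1.02 ± 0.084 (adjusted p = 0.000422, limma) in Bach2(f/f), and DZ levels were 2.00 and 2.17 times the LZ levels. H2afx was likewise higher in every DZ library than in any LZ library, by -0.74 ± 0.14 (adjusted p = 0.00902, limma) and -0.49 ± 0.14 (adjusted p = 0.0337, limma) as LZ minus DZ. Its Bach2(f/f) call was lost without any 1 of the 4 Bach2(f/f) libraries, at adjusted p from 0.0898 to 0.145 in limma. Mdc1 was higher in DZ in both genotypes, by -0.24 ± 0.040 (adjusted p = 0.00601, limma) in Bach2(+/+) and -0.24 ± 0.040 (adjusted p = 0.00526, limma) in Bach2(f/f) as LZ minus DZ, and Topbp1 passed only the Bach2(+/+) test, at -0.14 ± 0.036 (adjusted p = 0.0311, limma).

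Other members ran the opposite way. Atr was higher in LZ in both genotypes, by 0.65 ± 0.089 (adjusted p = 0.00327, limma) in Bach2(+/+) and 0.55 ± 0.089 (adjusted p = 0.00479, limma) in Bach2(f/f), and its lowest LZ library was above its highest DZ library. Xrcc5 was higher in LZ by 0.40 ± 0.073 (adjusted p = 0.00927, limma) and 0.40 ± 0.073 (adjusted p = 0.00748, limma). Its partner Xrcc6, whose protein forms a 1-to-1 ring with that of Xrcc5, differed by -0.059 ± 0.046 (adjusted p = 0.368, limma) and 0.06 ± 0.046 (adjusted p = 0.355, limma) and passed in neither genotype. Prkdc was higher in LZ in Bach2(+/+), by 0.36 ± 0.081 (adjusted p = 0.0189, limma), and Chek2 by 0.26 ± 0.077 (adjusted p = 0.0472, limma). The plot of levels shows 9 genes in every library.

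**Figure D3:**
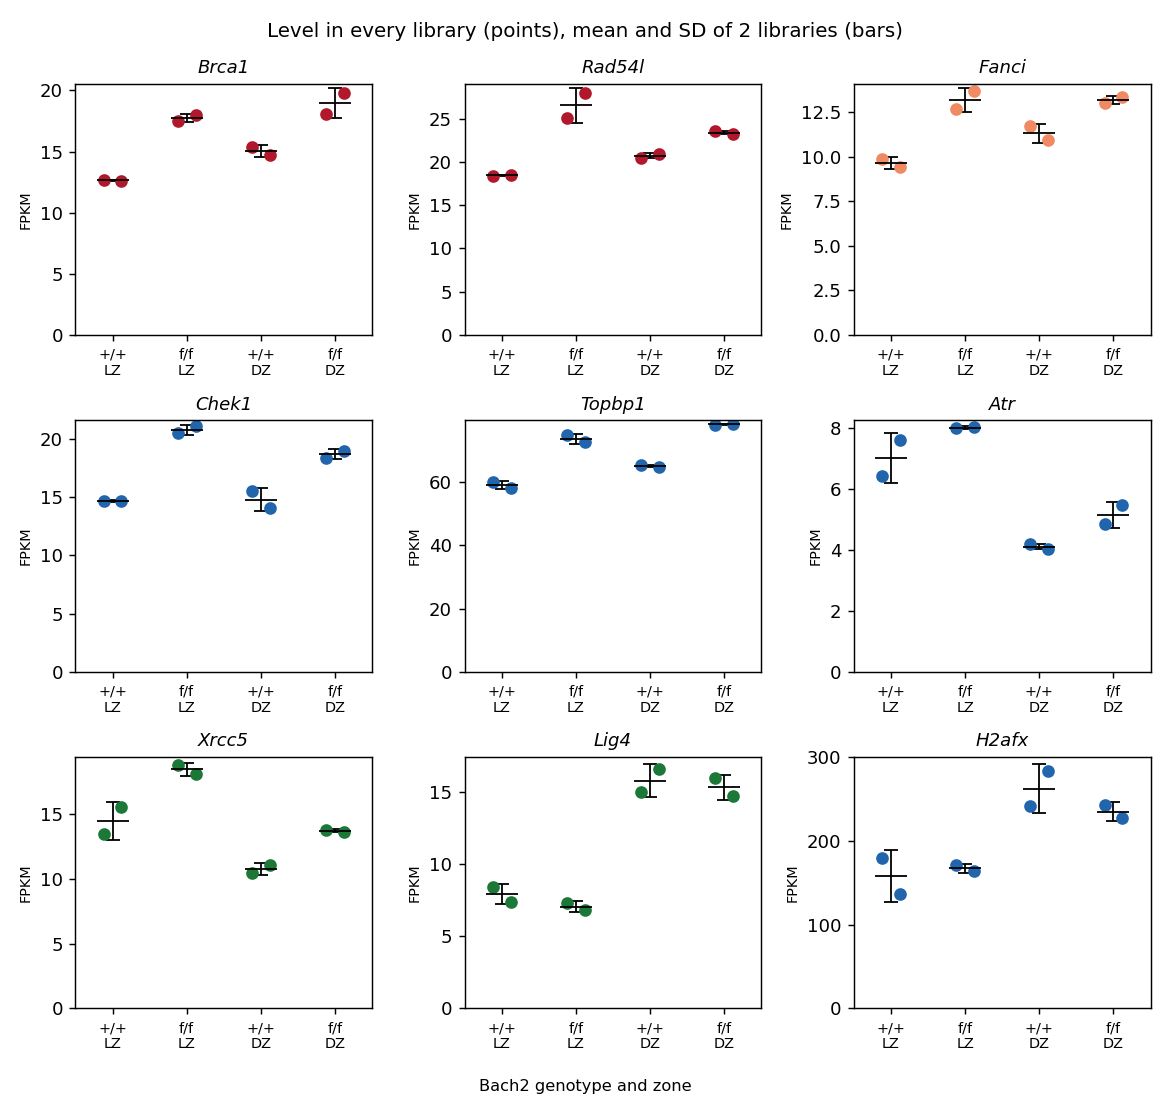
FPKM of 9 genes in each of the 8 libraries (points), with the mean and SD of the 2 libraries of a group (bars) and an axis from 0. Brca1, Rad54l, Fanci, Chek1 and Topbp1 are higher in Bach2(f/f) than in Bach2(+/+) LZ libraries, Atr and Xrcc5 are higher in LZ than DZ, and Lig4 and H2afx are higher in DZ.

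In Bach2(f/f) cells the recombination genes showed little zone bias. Of 17, 1 was higher in LZ and 0 higher in DZ, and of the 8 Fanconi genes 1 and 1. Checkpoint genes counted 1 higher in LZ and 2 higher in DZ, and end joining genes 2 and 1. Over all genes tested 18% were higher in LZ and 16.1% higher in DZ. The medians were 0.0083 for recombination, 0.034 for Fanconi, 0.15 for checkpoint and 0.15 for end joining genes. The lower count of DZ-biased recombination genes in Bach2(f/f) than in Bach2(+/+) has the same test as above, since the difference between zone effects is the difference between genotype effects, and by it 0 members passed.

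Nbn was the recombination gene higher in LZ of Bach2(f/f), by 0.40 ± 0.067 (adjusted p = 0.0058, limma), and its value in Bach2(+/+) was 0.19 ± 0.067 (adjusted p = 0.0769, limma). Fancb was higher in LZ by 0.24 ± 0.061 (adjusted p = 0.0242, limma) and Fancm higher in DZ, at -0.24 ± 0.060 (adjusted p = 0.0255, limma). Xrcc4, the scaffold of LIG4, was at 8.98 and 8.65 FPKM in Bach2(+/+) LZ, 8.62 and 7.78 in Bach2(f/f) LZ, 7.70 and 7.49 in Bach2(+/+) DZ and 7.01 and 6.24 in Bach2(f/f) DZ. LZ values were above DZ values in each genotype, and the Bach2(f/f) difference was 0.27 ± 0.075 (adjusted p = 0.0335, limma). Brca1 differed between zones of Bach2(f/f) by -0.089 ± 0.056 (adjusted p = 0.267, limma), Chek1 by 0.15 ± 0.056 (adjusted p = 0.0897, limma), Trp53 by 0.22 ± 0.071 (adjusted p = 0.0563, limma), Atm by 0.19 ± 0.089 (adjusted p = 0.152, limma), Parp1 by -0.081 ± 0.033 (adjusted p = 0.108, limma) and Prkdc by 0.25 ± 0.081 (adjusted p = 0.0583, limma). In Bach2(+/+), Chek1 differed by -0.0095 ± 0.056 (adjusted p = 0.917, limma), Trp53 by 0.08 ± 0.071 (adjusted p = 0.429, limma), Atm by 0.20 ± 0.089 (adjusted p = 0.132, limma), Parp1 by -0.087 ± 0.033 (adjusted p = 0.0918, limma) and Brca2 by -0.15 ± 0.078 (adjusted p = 0.2, limma).

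Counting both genotypes, Atr and Xrcc5 were higher in LZ in both, and Mdc1, H2afx and Lig4 were higher in DZ in both. Zone calls that held without each library in turn were those of Atr, Mdc1, Lig4 and Xrcc5 in both genotypes, H2afx in Bach2(+/+) and Nbn in Bach2(f/f). The other 13 Bach2(+/+) calls and 4 Bach2(f/f) calls were lost without at least 1 library, at adjusted p up to 0.191 and 0.168 in limma. For checkpoint and end joining genes the Bach2(+/+) count fell from 8 to 5 without either Bach2(+/+) DZ library, and the Bach2(f/f) count of 6 ranged from 4 to 9. Without either Bach2(f/f) DZ library the Bach2(f/f) count of recombination and Fanconi genes fell from 3 to 1. Without both Bach2(+/+) libraries numbered 1 it was 5. In none of the 4 pairwise comparisons did Brca2, Mre11a, Mus81, Fancl, Atm, Trp53bp1 or Parp1 pass. Atm passed as higher in LZ of Bach2(+/+) without Bach2(+/+) LZ replicate 1 (adjusted p = 0.0139, limma), and Brca2 for genotype in LZ without Bach2(+/+) LZ replicate 2 (adjusted p = 0.0448, limma). In Bach2(f/f), Atm, Trp53 and Prkdc passed as higher in LZ without either Bach2(+/+) LZ library, at adjusted p of at most 0.0353, 0.00841 and 0.0246. Trp53 also passed for genotype in DZ without either of these (adjusted p of at most 0.0379, limma), and between zones of Bach2(+/+) without Bach2(+/+) LZ replicate 2 (adjusted p = 0.0392, limma).

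**Figure D4:**
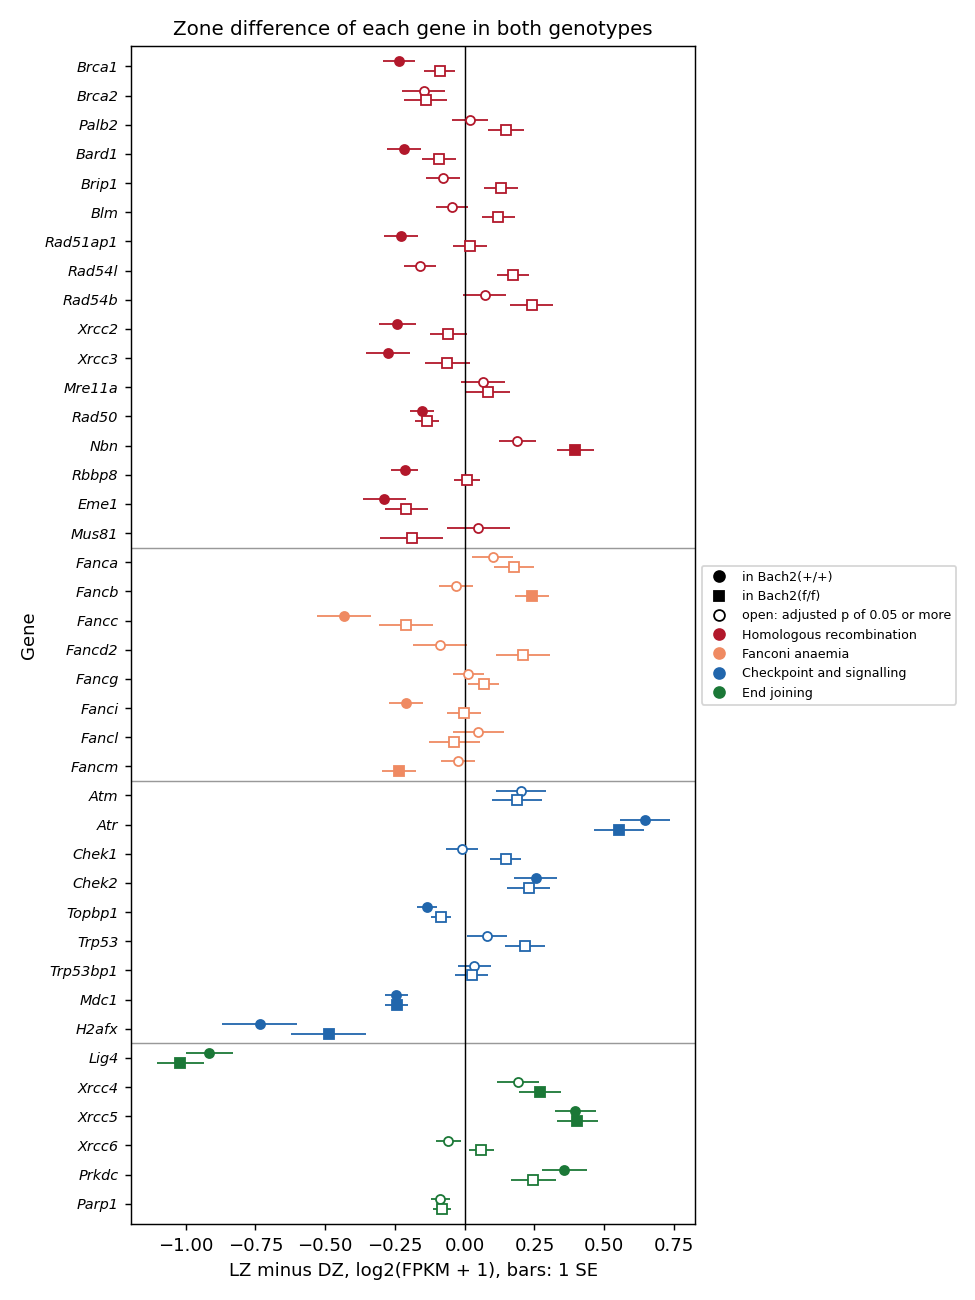
LZ minus DZ on the log2(FPKM + 1) scale for the 40 genes, in Bach2(+/+) (circles) and Bach2(f/f) (squares), with bars of 1 SE; filled symbols have a limma adjusted p under 0.05. Lig4 stands farthest to the left at -0.92 and -1.02 and Atr farthest to the right at 0.65 and 0.55.

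Some members had nearly the same profile over the 4 group means, judged by the distance between their log2(FPKM + 1) group means after centring each gene. Brca2 and Rad50 were each other's nearest member at a distance of 0.026, Rad51ap1 and Fanci at 0.028, Rad54b and Trp53 at 0.032, Brca1 and Xrcc3 at 0.034, and Bard1 and Xrcc2 at 0.037. The most isolated profile was that of Lig4, whose nearest member, H2afx, lay at 0.40. Pairs whose products work as 1 complex were not always close. Nearest to Eme1 was Mdc1 and not Mus81, nearest to Xrcc5 was Nbn and not Xrcc6, and nearest to Lig4 was H2afx and not Xrcc4. The distances describe 4 means of 2 libraries each and carry no test.

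Other genes of these pathways, outside the 40, were counted from lists. Of 34 further recombination and Fanconi genes tested, 16 rose (47.1%) and 0 fell with genotype in LZ and 4 rose (11.8%) and 0 fell in DZ. Of all genes, 18.4% rose and 12.7% fell in LZ, and 6.63% rose and 5.23% fell in DZ. The smallest p values in LZ were those of Exo1, a resection nuclease, at 0.63 ± 0.057 (adjusted p = 0.00124, limma), Rpa2, a subunit of the cover of single-stranded DNA, at 0.51 ± 0.046 (adjusted p = 0.00126, limma), and Usp1, which removes ubiquitin from the FANCD2 clamp, at 0.35 ± 0.041 (adjusted p = 0.00226, limma).

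Between zones, 2 of these 34 were higher in LZ and 9 higher in DZ in Bach2(+/+), and 4 and 4 in Bach2(f/f). In Bach2(+/+) these were 5.88% and 26.5%, beside 15.2% and 16.1% of all genes. In Bach2(f/f) they were 11.8% each way, beside 18% and 16.1% of all genes. Helq, a helicase for stalled forks, was higher in DZ in both genotypes, at -0.77 ± 0.057 (adjusted p = 0.000377 and 0.000307, limma). Slx4, the scaffold of joint-cutting nucleases, differed by -0.74 and -0.73 between zones and rose with genotype in both LZ and DZ by 0.44. Of 30 further checkpoint genes, 15 rose (50%) and 0 fell with genotype in LZ and 7 rose (23.3%) and 0 fell in DZ. The shares of all genes that rose were 18.4% and 6.63%, and those that fell 12.7% and 5.23%. Between zones of Bach2(+/+), 0 of these 30 were higher in LZ and 12 (40%) higher in DZ, beside 15.2% and 16.1% of all genes. In Bach2(f/f) 3 (10%) were higher in LZ and 7 (23.3%) higher in DZ, beside 18% and 16.1% of all genes. Tipin and Clspn, which hold the ATR signal at the fork, both rose in LZ by 0.54. Cdc25b, a phosphatase that opens mitosis, was higher in DZ, at -1.17 ± 0.093 as LZ minus DZ in Bach2(+/+) (adjusted p = 0.000468, limma), and did not pass for genotype.

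Of 26 targets of p53 tested, 3 rose and 3 fell with genotype in LZ, and 0 rose and 1 fell in DZ, beside the 18.4% and 12.7% of all genes in LZ and 6.63% and 5.23% in DZ. Aen, a nuclease induced by p53, rose in LZ by 0.46 ± 0.072 (adjusted p = 0.00544, limma). Btg2, an antiproliferative factor, fell by 0.48 in LZ (adjusted p = 0.00107, limma), and Trp53inp1 fell by 0.41 (adjusted p = 0.00302, limma). These genes also answer to other factors.

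Genes of the cell cycle moved beside the repair genes. Of 32 DNA replication genes 28 rose and 0 fell with genotype in LZ, with a median of 0.42, and 17 rose and 0 fell in DZ, with a median of 0.24. Their summed level was 2030 to 2160 FPKM in Bach2(+/+) LZ, 2870 in both Bach2(f/f) LZ libraries, 2530 to 2570 in Bach2(+/+) DZ and 3020 to 3050 in Bach2(f/f) DZ. The recombination sum followed the same order in LZ, at 199 to 210 against 260 to 261 FPKM, and in DZ, at 221 to 223 against 255. Of 26 mitosis genes 12 rose (46.2%) and 0 fell with genotype in LZ and 2 rose (7.69%) and 0 fell in DZ. The shares of all genes that rose were 18.4% and 6.63%. Between zones of Bach2(+/+), 23 replication and 25 mitosis genes were higher in DZ and 0 of either were higher in LZ. In Bach2(f/f) 11 replication genes were higher in DZ and 2 higher in LZ, and 19 mitosis genes were higher in DZ. The shares higher in DZ were 71.9% of replication and 96.2% of mitosis genes in Bach2(+/+), and 34.4% and 73.1% in Bach2(f/f). Over all genes, 16.1% were higher in DZ in each genotype, and 15.2% in Bach2(+/+) and 18% in Bach2(f/f) were higher in LZ. The part of the cell cycle in the repair gene differences was not tested.

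**Figure D5:**
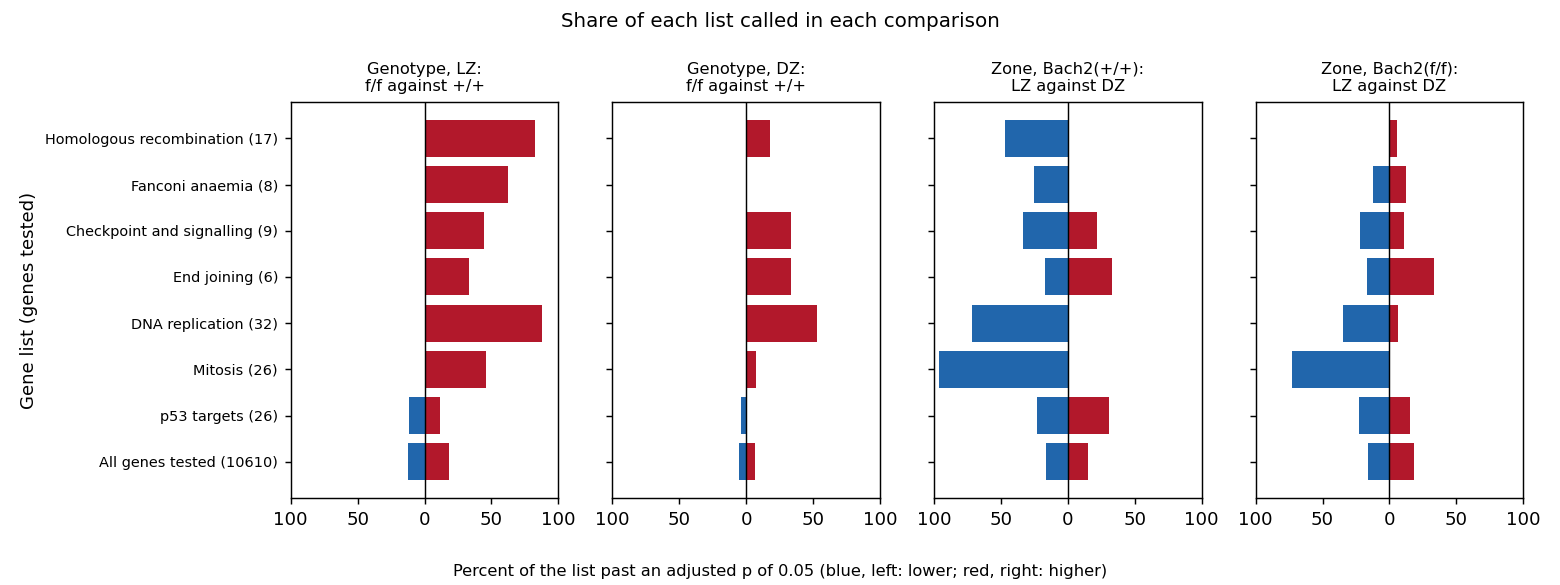
Share of each gene list (percent of genes tested, number in brackets) that passed the limma threshold, with higher genes to the right and lower genes to the left of 0, in the 4 pairwise comparisons. In the LZ genotype panel the recombination list reaches 14 of 17 and the replication list 28 of 32, beside 18.4% of all genes.

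Markers of other cells also differed between groups. Myeloid markers (10 genes) summed to 17.3 to 66.5 FPKM in Bach2(+/+) LZ, 28.7 to 154 in Bach2(f/f) LZ, 7.55 to 9.19 in Bach2(+/+) DZ and 5.24 to 6.7 in Bach2(f/f) DZ. S100a8, a neutrophil protein, was highest in Bach2(f/f) LZ replicate 2, at 53.1 FPKM against 5.51 in replicate 1, while Cd14 was at 0.139 FPKM or below in every library. Leaving out that library lowered the LZ genotype counts, as given above. Leaving out Bach2(f/f) LZ replicate 1, where the myeloid sum was 28.7 FPKM, lowered the recombination and Fanconi count further. The number of all genes called higher also fell without either of these libraries. Naive B cell markers (9 genes) summed to 422 to 456 FPKM in Bach2(+/+) LZ, 244 to 253 in Bach2(f/f) LZ, 164 to 170 in Bach2(+/+) DZ and 106 to 108 in Bach2(f/f) DZ, and at most 8 of the 9 reached 1 FPKM in any library. Their part in the repair gene differences was not tested.

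The remaining marker lists were as follows. T cell markers (9 genes) summed to 55.5 to 60.6 FPKM in Bach2(+/+) LZ and 64.5 to 66.9 in Bach2(f/f) LZ. Their DZ sums were lower, at 35.4 to 36.5 in Bach2(+/+) and 34.3 to 36.6 in Bach2(f/f). Nearly all of this was Lck, with Cd3e and Cd3g at 0.11 FPKM or below. Plasma cell markers (7 genes) summed to 309 to 325 FPKM in Bach2(+/+) LZ, 368 to 369 in Bach2(f/f) LZ, 431 to 449 in Bach2(+/+) DZ and 460 to 472 in Bach2(f/f) DZ, nearly all of it Igj and Xbp1. Prdm1, floxed in every group, was at 0.058 and 0.018 FPKM in Bach2(+/+) LZ, 0.98 and 0.967 in Bach2(f/f) LZ, 0.047 and 0.122 in Bach2(+/+) DZ and 0.258 and 0.434 in Bach2(f/f) DZ; it was under the filter and was not tested, and the Bach2(f/f) libraries were the higher ones in both zones. Erythroid markers (7 genes) summed to 25.5 to 35.9 FPKM in Bach2(+/+) LZ and 25.9 to 32.7 in Bach2(f/f) LZ. Their DZ sums were also lower, at 18.9 to 22.6 in Bach2(+/+) and 16.8 to 20.4 in Bach2(f/f). Over all libraries stromal markers (8 genes) summed to 50.2 to 63.7 FPKM and NK cell markers (5 genes) to 0.126 to 2.25.

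Some members share exons with other genes, and the strand of the reads was not given, so their values are uncertain. In the GENCODE annotation 21 of the 40 share at least 1 exonic base with another gene. At least 10% was shared in 8: Rad54l, Rad54b, Fanca, Fancc, Fanci, Fancl, Trp53bp1 and H2afx. Rad54b shared the most, 35.8% with Fsbp on the same strand. Without these 8 the LZ genotype count was 15 of 19 recombination and Fanconi genes and 6 of 13 others, all higher.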

How the data were processed

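Values came from 1 FPKM table deposited by the authors for 23234 gene symbols and 8 libraries; the submitters' processing notes list TopHat2 2.0.8, Cufflinks 2.1.1 and the build mm9 without saying what each was used for. The library kit was NEBNext Ultra RNA, per the labels' protocols, and its strand setting is not given in the sources used here. The table's 1 row of codes was dropped, and 0 columns lacked a sample. No counts were used, so depth is known only as a ratio between libraries, and the number of libraries limits the precision. Their ratio came from the commonest ratio between low FPKM values, shared by 20% to 27.7% of such genes.

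Values were taken as log2(FPKM + 1), with a pseudocount of 1, and genes were tested where 2 or more libraries reached 1 FPKM. Group means were fitted with limma 3.58.1 in R 4.3.3, with an intensity trend and all 8 libraries in 1 fit (4 residual and 2.46 prior degrees of freedom). Tests were 2-sided, with Benjamini-Hochberg adjustment over all genes within each of 5 contrasts. Data were simulated for the LZ genotype comparison (10610 genes), with 50 genes changed at each of 4 sizes. Of changes of 0.3, 0.5, 1 and 2, 32%, 64%, 90% and 96% were recovered, and 5 of 146 calls were false. The measured comparison made 3299 calls, so its adjusted threshold was less strict and these rates do not carry over to it.

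The members and gene lists were chosen with earlier results of these data known. Values in every library are given for Brca1, Brca2, Chek1, Atm, Atr, Trp53, H2afx, Xrcc6, Prkdc and Parp1, and for up to 4 members of each class with the smallest p among those past the threshold in each pairwise comparison. Of the other lists, up to 3 genes with the smallest p are named; 1 gene of the rule is not reported here. Mus81 without 1 library, Klf2, S100a8, Cd14 and Lck were picked out once their values were known. Fits were repeated with other pseudocounts, filters, scalings, a constant variance prior, a replicate block, only the libraries compared, and each library left out. Fits without members sharing exons, and without both Bach2(+/+) libraries numbered 1, were added after the data were seen.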

Additional observations from a re-analysis of the deposited data

How the results depend on the processing

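The pseudocounts 0.25 and 3 changed no count of members by more than 1.5 times. The counts that moved by more were these, recombination and Fanconi genes first. With only the libraries compared, the genotype counts were 12 and 3 in LZ and 1 and 2 in DZ, and the zone counts 1 and 3 in Bach2(+/+), with 5 recombination and Fanconi genes in Bach2(f/f). Such fits have fewer degrees of freedom, and the part of this in the counts was not tested. Calls over all genes fell from 3299 to 2208 and from 1258 to 678 for genotype in LZ and DZ. They fell from 3312 to 1737 between zones of Bach2(+/+) and rose from 3623 to 3943 between zones of Bach2(f/f). Quantile normalization gave 3 checkpoint and end joining genes in DZ. No filter gave 4 recombination and Fanconi genes between zones of Bach2(+/+), and a filter of a mean of 5 FPKM gave 6 between zones of Bach2(f/f). Without both Bach2(+/+) libraries numbered 1 the counts were 0 and 2 for genotype in DZ, 3 recombination and Fanconi genes between zones of Bach2(+/+) and 5 between zones of Bach2(f/f). The cause was not tested. With 1 library left out, the lone library of its group was assumed to vary like the others; recombination and Fanconi counts ran from 10 to 19 and 0 to 5 for genotype in LZ and DZ and from 1 to 6 and 1 to 4 between zones of Bach2(+/+) and Bach2(f/f), and the others from 3 to 6, 0 to 6, 5 to 8 and 4 to 9. The difference between zones of the genotype effect stayed at 0 called members throughout.

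Over the genes tested, deviations of same-numbered libraries correlated between -0.108 and 0.124. These correlations cannot show whether same-numbered libraries came from the same pool of mice. Both Bach2(+/+) libraries numbered 1 did share a high Klf2 level, as given above. With a replicate block 2 checkpoint and end joining genes passed in DZ, and no other count moved by more than 1.5 times.

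Of the small differences that changed sign, none passed at its reversed value, while Trp53 passed without Bach2(+/+) LZ replicate 2. The LZ genotype difference of Atm was -0.001546 with upper quartile scaling and -0.07911 without Bach2(+/+) LZ replicate 1 (up to 0.1883 without another library). That of H2afx was -0.01594 with quantile normalization and -0.1053 without Bach2(+/+) LZ replicate 2 (up to 0.2926), and that of Prkdc 0.03789 without the same library (down to -0.1742). Between zones of Bach2(+/+), Chek1 was at 0.01011 with upper quartile scaling, 0.005127 with quantile normalization and 0.056 without Bach2(+/+) DZ replicate 1 (down to -0.07497), and Trp53 at -0.02909 without Bach2(+/+) LZ replicate 1 (up to 0.1891). Depth limits low FPKM values most, and DZ libraries were the deeper ones.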

Other observations

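End joining genes outside the 40 rose more often than all genes in LZ, while the share that fell was near that of all genes. Of 24 tested, 11 rose and 3 fell with genotype in LZ, and 2 rose and 2 fell in DZ. In LZ these were 45.8% and 12.5%, beside 18.4% and 12.7% of all genes. In DZ they were 8.33% each way, near the 6.63% and 5.23% of all genes. Between zones of Bach2(+/+), 4.17% were higher in LZ and 12.5% higher in DZ, beside 15.2% and 16.1% of all genes. Between zones of Bach2(f/f) these shares were 8.33% and 16.7%, beside 18% and 16.1% of all genes. Lig1, the replication ligase that also seals ends in the alternative pathway, had a mean of 67.8 ± 5.71 FPKM (SD, n = 2) in Bach2(+/+) LZ, 95.8 ± 2.12 in Bach2(f/f) LZ, 94.9 ± 1.12 in Bach2(+/+) DZ and 117 ± 1.03 in Bach2(f/f) DZ. It rose by 0.49 ± 0.058 in LZ (adjusted p = 0.00226, limma). Polm, a polymerase that fills gaps at joined ends, went the other way. It had a mean of 19.7 ± 0.312 FPKM (SD, n = 2) in Bach2(+/+) LZ, 12.3 ± 0.890 in Bach2(f/f) LZ, 18.3 ± 2.29 in Bach2(+/+) DZ and 10.0 ± 0.717 in Bach2(f/f) DZ. Polm fell by 0.63 in LZ (adjusted p = 0.00481, limma) and fell by 0.80 in DZ (adjusted p = 0.00745, limma). Parp3, which primes ends for end joining, fell by 0.46 in LZ (adjusted p = 0.00388, limma) and fell by 0.34 in DZ (adjusted p = 0.0238, limma). Xrcc1, the scaffold of single-strand break repair, was the gene of this list with the smallest p between zones of Bach2(+/+), at -0.68 ± 0.055 as LZ minus DZ (adjusted p = 0.000493, limma).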
